A study of Mus musculus with 4 samples.

Results

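The NAD synthesis and sirtuin genes described here are 10 genes of the mouse heart, covering the nicotinamide riboside kinases Nmrk1 and Nmrk2, the nicotinamide-recycling enzyme Nampt, the NMN-to-NAD enzymes Nmnat1 and Nmnat3 (adenylyl transferases), the NAD kinases Nadk and Nadk2, and the NAD-dependent deacylases Sirt1, Sirt3 and Sirt5. They were found by symbol through the Entrez Gene identifiers of the count table. All 10 were among the 24454 genes listed and among the 14266 tested. They were chosen on the difference between miR-128OE and Ctrl hearts in these same libraries, so their values are given as a description with no p-value. Where the text counts members past the threshold that was applied to all genes, the count is a description too and supports nothing.

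RNA-seq reads were counted per gene in hearts at postnatal day 7 (P7), with 2 Ctrl libraries (WH7 and WH8) and 2 miR-128OE libraries (WH9 and WH10). Ctrl mice carried miR-128 TetRE alone, a microRNA-128 responder under a tetO-minimum promoter knocked into Rosa26 as a single copy. The miR-128OE mice carried α-MHC-tTA together with miR-128 TetRE, so that the tetracycline transactivator was driven by the cardiomyocyte promoter of α-myosin heavy chain and doxycycline repressed the responder. All mice were on a C57BL/6 background. The responder was made in C57BL/6N embryonic stem cells, and the α-MHC-tTA mice came from The Jackson Laboratory. The substrain of each library is not given in the sources used here. The transactivator was present in the miR-128OE mice alone, and no library of α-MHC-tTA mice without the responder was analysed here. The doxycycline schedule of the P7 hearts and the number of hearts behind a library are not given in the sources used here.

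NAD carries electrons between dehydrogenases and is also consumed by enzymes that cleave it, so cells rebuild it from nicotinamide. Nampt turns nicotinamide into nicotinamide mononucleotide (NMN), the nicotinamide riboside kinases reach NMN by another route, and the Nmnat enzymes turn NMN into NAD. NAD kinases phosphorylate NAD to NADP, and sirtuins cleave NAD while they remove acyl groups from proteins. Heart muscle is rich in mitochondria and holds a large NAD pool, and Nmrk2 is known as the muscle form of the riboside kinase.

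The letters of miR-128-3p, the overexpressed microRNA, are shown first because they fix which member transcripts hold a match to it. In RefSeq the same 21-base mature sequence is encoded by Mir128-1 on chromosome 1 and Mir128-2 on chromosome 9. Capitals mark the seed, bases 2 to 8.
miR-128-3p: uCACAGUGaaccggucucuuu
A match to bases 2 to 8 reads CACTGTG in a transcript (7mer-m8), the same match followed by A reads CACTGTGA (8mer), and a match to bases 2 to 7 alone reads ACTGTG (6mer). A 6mer followed by A (7mer-A1) reads ACTGTGA. These letters were searched on the transcript strand in the longest 3′UTR of the coding transcripts of GENCODE M21.

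An 8mer was present in 1 of the 10 member 3′UTRs, that of Nmrk2, and 7mer-m8 matches were present in those of Nadk2 and Sirt1. The 3 stretches below are each 30 bases, read 5′ to 3′ on the transcript strand, and capitals mark the match.
Nmrk2, 8mer: gcagtgggcacggaCACTGTGAgattttct
Nadk2, 7mer-m8: agaaaaatgaatgtCACTGTGtgaggtaat
Sirt1, 7mer-m8: aattaaatacctatCACTGTGgtagagcct
On GRCm38 (mm10) the Nmrk2 match lay at chr10:81199234-81199241 on the minus strand, at bases 120 to 127 of a 3′UTR of 1191 bases. The Nadk2 match lay at chr15:9109680-9109686 on the plus strand, at bases 1323 to 1329 of 2130. The Sirt1 match lay at chr10:63319886-63319892 on the minus strand, at bases 744 to 750 of 1631.

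Annotated 3′UTRs of Nmrk1 and Nmnat3 held a 6mer alone, and those of Nampt, Nmnat1, Nadk, Sirt3 and Sirt5 held none of these letters in the window searched. A 7mer or 8mer was thus present in 3 of 10 members, in 16 of 66 other NAD genes tested (24.2%) and in 4181 of 13495 tested genes with a 3′UTR (31.0%). An 8mer was present in 813 of these 13495 genes (6.02%), and in 1 of the 66 other NAD genes. A match describes the letters and does not show that the site was bound.

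Before the members, the whole table is described. Libraries held 8096870 to 14359838 counts in all. A detection floor of 3 counts equals 2.52 to 4.24 normalized counts (counts scaled to a common library size), and it covers counting error only. At an adjusted p under 0.05 in edgeR's quasi-likelihood test, 2347 genes were higher in miR-128OE hearts (16.5% of 14266) and 2143 were lower (15.0%). Scaling by total counts gave a split of 1611 higher and 2948 lower, and the median over all genes moved from -0.01 to -0.11 on the log2 scale. The entry for the precursor Mir128-2 had 0, 0, 2 and 10 counts in WH7, WH8, WH9 and WH10, and Mir128-1 had 0 in all 4. These counts check the overexpression only weakly, because the mature microRNA was not counted here. Xist had 14543 and 11339 counts in the Ctrl libraries against 94 and 132 in the miR-128OE libraries, and Ddx3y had 13 and 7 against 1442 and 1768. Condition and sex therefore coincided and cannot be told apart. CPM values here are counts scaled to the effective library size, which includes the TMM scaling factor of each library. Summed cardiomyocyte markers were 32641 and 33889 CPM in Ctrl and 40486 and 39804 CPM in miR-128OE libraries. Of the 7 markers, 3 were higher and 1 was lower. In RNA of heart tissue, fewer cells of a type and less RNA per cell cannot be told apart.

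Both nicotinamide riboside kinases were lower in miR-128OE hearts, and the member with the largest difference was Nmrk2. Nmrk2 (chr10:81198170-81202051, minus strand) makes NMN from nicotinamide riboside. Its normalized counts were 631 (WH7) and 671 (WH8) in Ctrl hearts, and 202 (WH9) and 260 (WH10) in miR-128OE hearts. Neither miR-128OE value came near the Ctrl values, and the groups did not overlap. The mean fell by 64.5%, from 651 ± 28.5 to 231 ± 41.0 (SD, n = 2 each), a log2 fold change of -1.49 (SE 0.13). Counted from the lowest log2 fold change, it stood at rank 219 of 14266 tested genes. Among genes with an 8mer in the 3′UTR, 9 of 813, Nmrk2 included, had a log2 fold change at or below that of Nmrk2. Among genes whose 3′UTR held none, 145 of 12682 did. The cutoff is the value of a member chosen on this contrast, so these counts support nothing. Of the 813, 16.9% were called lower and 14.0% higher, and of the 12682, 14.6% and 17.1%, a difference that was not tested. These sets of genes were not matched for 3′UTR length or level.

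Exons of Nmrk2 share 270 of their 1854 bases with Atcayos on the opposite strand, and whether reads were assigned by strand is not given in the sources used here. Atcayos had 398, 455, 422 and 521 normalized counts in WH7, WH8, WH9 and WH10, with a log2 fold change of 0.15. Its groups overlapped, and the part of its reads in the Nmrk2 value was not tested. Markers of skeletal muscle, another tissue that expresses Nmrk2, summed to 22.7 to 29.7 CPM in Ctrl and 28.2 to 28.9 CPM in miR-128OE libraries. None of the 3 tested skeletal markers of 10 passed the test, and Myod1 was at 0 in all 4 libraries. Atrial markers summed to 5886 CPM in WH7 and 702 CPM in WH8, with 2110 and 2711 CPM in the miR-128OE libraries. Their part in the Nmrk2 value was not tested.

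Nmrk1 (chr19:18631950-18652428, plus strand), the more widely expressed riboside kinase, had 179 and 182 normalized counts in Ctrl and 106 and 103 in miR-128OE libraries. Replicates lay within a few counts of each other, and the groups did not overlap. Its mean fell by 42.3%, from 181 ± 2.18 to 104 ± 2.35 (SD, n = 2 each), a log2 fold change of -0.79 (SE 0.16).

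Nampt (chr12:32819545-32853349, plus strand), the rate-limiting enzyme of nicotinamide recycling, had the opposite direction. It had 408 and 399 normalized counts in Ctrl and 516 and 487 in miR-128OE libraries. Both miR-128OE values exceeded both Ctrl values. The mean was 24.4% higher, at 501 ± 20.4 against 403 ± 6.57 (SD, n = 2 each), with a log2 fold change of 0.31 (SE 0.10). Nampt is also made in adipose tissue, whose 4 markers summed to 8.0 and 4.44 CPM in Ctrl and 27.6 and 20.7 CPM in miR-128OE libraries, with 2 of the 4 higher. The part of these cells in the Nampt value was not tested.

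**Figure D1:**
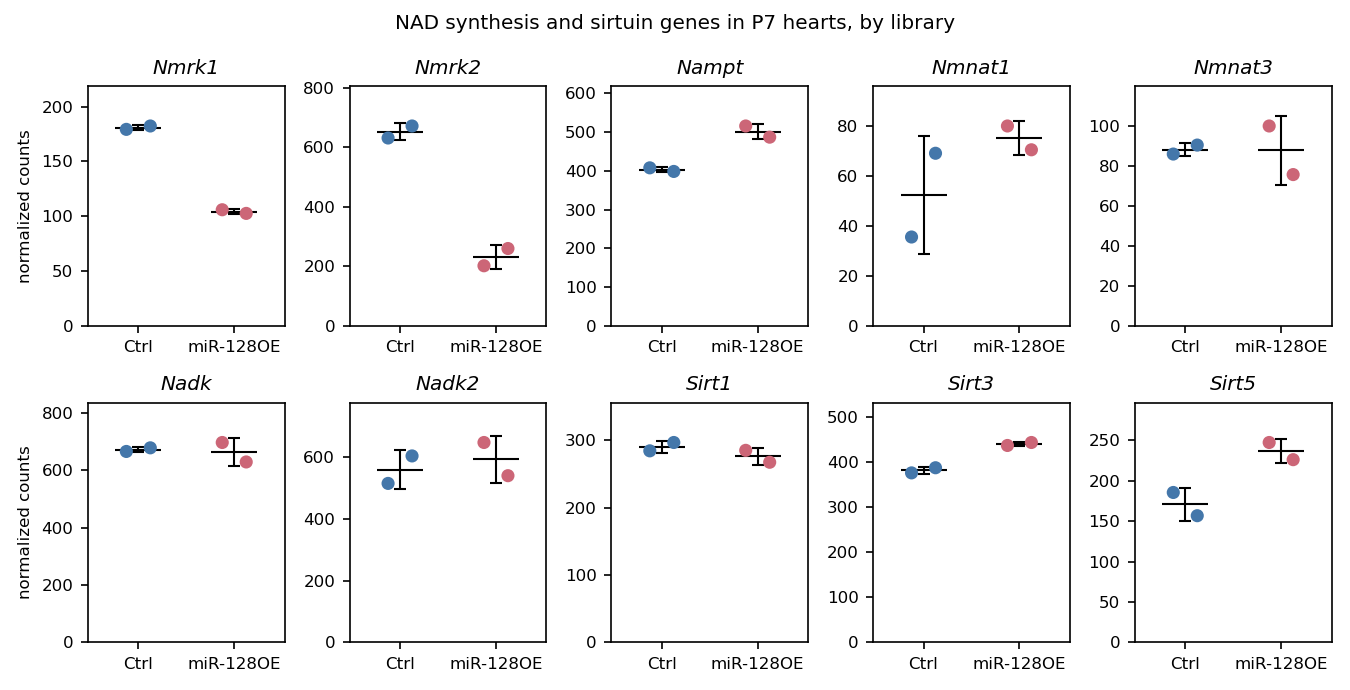
Normalized counts (vertical axis, from 0) of the 10 genes in the 2 Ctrl libraries (blue, WH7 then WH8) and the 2 miR-128OE libraries (red, WH9 then WH10), with the mean and SD in black. Nmrk1 and Nmrk2 are lower in both miR-128OE libraries, Nampt, Sirt3, Sirt5 and, narrowly, Nmnat1 are higher in both, and the other 4 genes overlap.

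Both Nmnat genes were low in counts and variable. Nmnat1 (chr4:149467572-149485202, minus strand) is the nuclear form of the enzyme. It had 35.7 and 69.3 normalized counts in Ctrl and 80.2 and 70.7 in miR-128OE libraries, from 39, 49, 81 and 84 reads. The lower miR-128OE value exceeded the higher Ctrl value by little more than 1 count. The log2 fold change of 0.57 had an SE of 0.31, and it was 0.12 without WH7 and 1.08 without WH8, so that the difference rested on which Ctrl library was kept. Nmnat3 (chr9:98287435-98420438, plus strand), the form assigned to mitochondria, had 94 and 64 reads in Ctrl and 101 and 90 reads in miR-128OE libraries. After scaling, the means were 88.2 ± 3.18 and 87.8 ± 17.2 normalized counts (SD, n = 2 each). The groups overlapped, and the log2 fold change was -0.01 (SE 0.22).

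Neither NAD kinase differed beyond the spread between libraries. Nadk (chr4:155562378-155591001, plus strand), the cytosolic enzyme, had 666 and 678 normalized counts in Ctrl and 697 and 629 in miR-128OE libraries, with a log2 fold change of -0.02 (SE 0.09). The mitochondrial enzyme Nadk2 (chr15:9071260-9110891, plus strand) had 516 and 605 in Ctrl and 649 and 541 in miR-128OE libraries, with a log2 fold change of 0.09 (SE 0.12). Groups overlapped for both genes. The 3′UTR of Nadk2 is the one with the 7mer-m8 match shown above.

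The 3 sirtuins among the members had unlike values. Sirt5 (chr13:43365496-43395203, plus strand), which removes succinyl and related groups from mitochondrial proteins, had 186 and 157 normalized counts in Ctrl and 248 and 226 in miR-128OE libraries. Its groups did not overlap, and the mean was 38.3% higher, at 237 ± 15.0 against 171 ± 20.3 (SD, n = 2 each), with a log2 fold change of 0.45 (SE 0.14).

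Sirt3 (chr7:140863666-140882309, minus strand), the main mitochondrial deacetylase, had 376 and 387 normalized counts in Ctrl and 437 and 443 in miR-128OE libraries. Its replicates were close together and its groups did not overlap, with a log2 fold change of 0.21 (SE 0.10). Exons of Sirt3 share 418 bases with Ric8a and 342 bases with Psmd13 on the opposite strand, out of 5973. Psmd13 had a log2 fold change of 0.42 and Ric8a of -0.11, and the part of their reads in the Sirt3 value was not tested.

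Sirt1 (chr10:63319005-63381704, minus strand), a mostly nuclear deacetylase, had 284 and 297 normalized counts in Ctrl and 285 and 267 in miR-128OE libraries. The groups overlapped, with a log2 fold change of -0.07 (SE 0.12). Its 3′UTR holds the other 7mer-m8 match. Exons of Sirt1 share 65 of 5331 bases with Gm16145 on the opposite strand, and the part of its reads in the Sirt1 value was not tested.

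Across the 10 genes, 2 were called higher (Nampt and Sirt5, beside 16.5% of all genes tested), 2 were called lower (Nmrk1 and Nmrk2, beside 15.0%) and 6 were not called. Both miR-128OE libraries lay above both Ctrl libraries in 4 genes, beside 33.7% of all genes tested, and below them in 2 genes, beside 34.4%. The median log2 fold change was 0.04 over the 10 genes and -0.01 over all genes tested. Since the genes were chosen on this contrast, nothing is read from these counts.

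**Figure D2:**
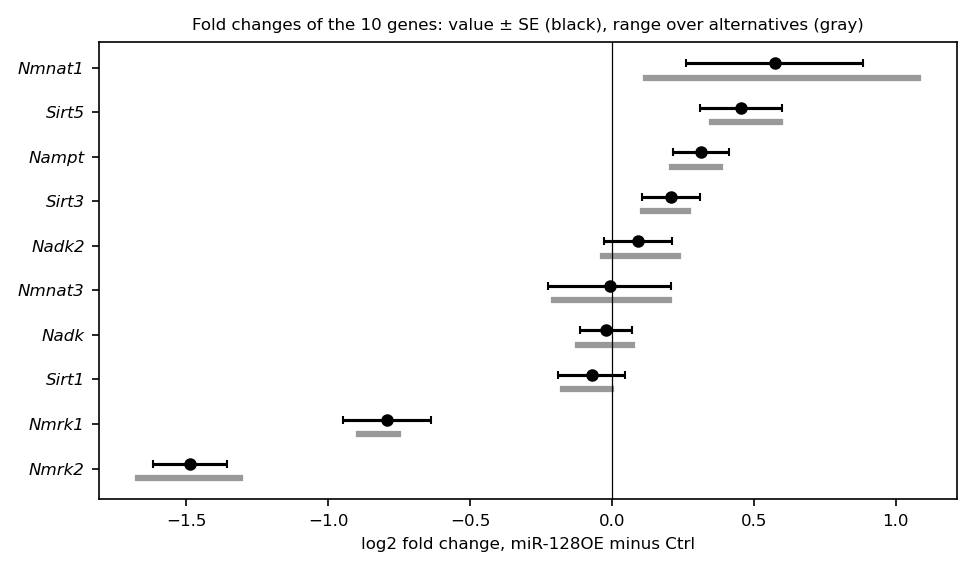
Log2 fold change of each gene, miR-128OE minus Ctrl (horizontal axis), with its SE (black), above the range over 12 alternative ways of processing the counts (gray). Nmrk2 ranges from -1.67 to -1.31 and Nmrk1 from -0.89 to -0.75, whereas the ranges of Nmnat3, Nadk and Nadk2 include 0.

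Over the 12 alternatives, Nampt ranged from 0.21 to 0.38 and Sirt5 from 0.35 to 0.59 in log2 fold change. Nmrk1 and Nmrk2 stayed past the threshold in each of the 12, and Nampt and Sirt5 in 6. Both of the latter fell short of it with upper-quartile factors, with total counts, with DESeq2, and without WH8, WH9 or WH10.

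Levels of different genes were compared per length of their merged exons, as CPM per kb. In Ctrl hearts the order was Nmrk2 (29.8 ± 1.31 CPM per kb), Nadk (15.2 ± 0.203), Nadk2 (9.30 ± 1.05), Nampt (6.78 ± 0.110), Sirt3 (5.43 ± 0.115), Sirt1 (4.63 ± 0.140), Nmrk1 (4.16 ± 0.0502), Sirt5 (2.39 ± 0.283), Nmnat3 (1.5 ± 0.0539) and Nmnat1 (1.47 ± 0.664; SD, n = 2 each). All neighbors in this order were separate in both Ctrl libraries except Nmnat3 and Nmnat1.

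In miR-128OE hearts, Nadk had the highest level, at 15.0 ± 1.09 CPM per kb, followed by Nmrk2 at 10.6 ± 1.88 and Nadk2 at 9.87 ± 1.26 (SD, n = 2 each). The ranges of Nmrk2 and Nadk2 overlapped. Below them stood Nampt (8.43), Sirt3 (6.26), Sirt1 (4.40), Sirt5 (3.30), Nmrk1 (2.40), Nmnat1 (2.11) and Nmnat3 (1.49). Sirt5 and Nmrk1 exchanged places between the conditions.

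The order depended on the length used, an alternative added after the data were seen. Divided by the longest coding transcript, Nmrk2 remained at rank 1 in Ctrl but stood at rank 4 in miR-128OE hearts. Sirt3 moved from rank 5 to rank 2 in Ctrl and from rank 5 to rank 1 in miR-128OE hearts, since its longest coding transcript is 1606 of 5973 exon bases.

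Among the 3 member enzymes that form NMN, the makeup of the mRNA differed between conditions. Of their summed level per kb, Nmrk2 took 72.5% and 73.8% in Ctrl and 45.4% and 53.0% in miR-128OE libraries. Nampt was 17.2% and 16.1% in Ctrl and 42.6% and 36.5% in miR-128OE libraries. Each share depends on all 3 genes. Mean Nampt was 6.78 CPM per kb in Ctrl and 8.43 in miR-128OE hearts, whereas mean Nmrk2 was 29.8 and 10.6. The larger change was thus the fall of Nmrk2. The share of Nmrk1 was between 10.1% and 12.0% in the 4 libraries, and between 17.3% and 19.7% with the longest coding transcript as the length. Nampt per kb was 0.237 and 0.218 times the level of Nmrk2 in Ctrl, and 0.937 and 0.687 times in miR-128OE libraries. With the longest coding transcript as the length, the last pair was 1.05 and 0.767, so whether Nampt reached the level of Nmrk2 in WH9 depends on the length used. These are levels of mRNA and not of enzyme or NAD.

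**Figure D3:**
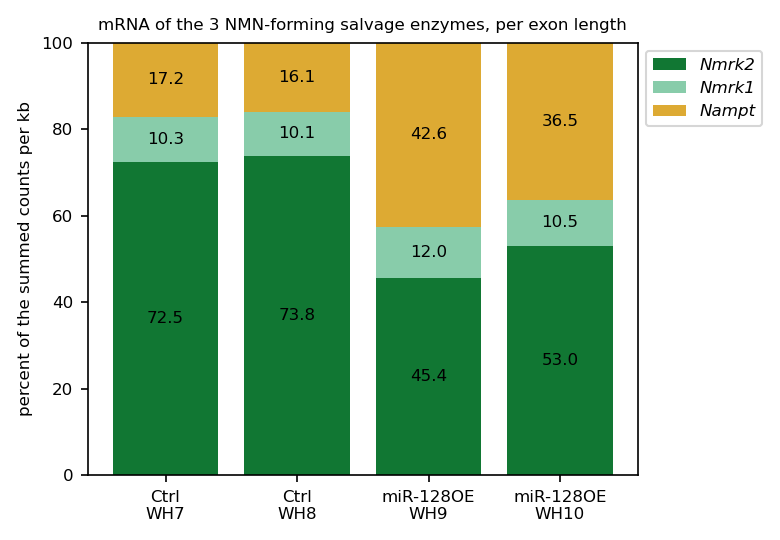
Shares (vertical axis, percent of the summed CPM per kb of merged exons) of Nmrk2, Nmrk1 and Nampt in each library, with 1 bar per library and no error bars. Nmrk2 makes up 72.5% and 73.8% in Ctrl hearts and 45.4% and 53.0% in miR-128OE hearts.

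Other genes of NAD metabolism were taken from 9 lists, with 66 of 75 genes tested, 15 higher (beside 16.5% of all genes tested), 11 lower (beside 15.0%) and 40 not called. The same shares of all genes stand beside the edgeR counts of each list below. Over all genes the DESeq2 test called 1714 higher and 1410 lower. The share of all genes at an unadjusted p under 0.05 was not computed, so nothing is read from the unadjusted counts. The lists were chosen with earlier results of these data known, so their counts are descriptions and support nothing. The median of the 66 genes was 0.07 on the log2 scale. Adjusted p-values below come from the edgeR quasi-likelihood fit, adjusted after Benjamini and Hochberg over all 14266 genes. In the list of further salvage enzymes and carriers, 3 of 9 tested genes were lower in edgeR and 1 (Slc29a2) in DESeq2. At an unadjusted p under 0.05, 4 were lower. These include Slc12a8 (-1.02, SE 0.40, adjusted p = 0.0816), named after its values were seen. None was higher in edgeR or in DESeq2, and 1 (Slc25a51, the mitochondrial NAD carrier) was higher at an unadjusted p under 0.05. The nucleoside transporter Slc29a2 had a log2 fold change of -1.10 (SE 0.17, adjusted p = 0.00132). Naprt and Nadsyn1, which act in the route from nicotinic acid, had -0.63 (SE 0.19, adjusted p = 0.0324) and -0.54 (SE 0.16, adjusted p = 0.0324), and both lost the call with DESeq2 and without WH7 or WH9. Nmnat2, the third gene of that family, was not called, at 0.37 (SE 0.33, adjusted p = 0.429).

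Of the route from tryptophan, 2 of 9 genes passed the filter on low counts. Afmid, which hydrolyzes formylkynurenine, had a log2 fold change of -0.66 (SE 0.12, adjusted p = 0.00347). Acmsd, named after its values were seen, had 13, 14, 3 and 6 counts and a log2 fold change of -1.87 (SE 0.57, adjusted p = 0.0337). DESeq2 gave Acmsd no adjusted p, and its call was lost without WH8, WH9 or WH10.

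None of the 4 other sirtuins was called by edgeR's quasi-likelihood test or by DESeq2, and 2 of them, Sirt2 (higher) and Sirt7 (lower), had an unadjusted p under 0.05. Sirt7 passed the adjusted threshold in 6 of the 12 alternatives and Sirt2 in 3. Log2 fold changes were 0.29 for Sirt2 (SE 0.10, adjusted p = 0.0612), -0.24 for Sirt4 (SE 0.16, adjusted p = 0.282), -0.01 for Sirt6 (SE 0.13, adjusted p = 0.973) and -0.34 for Sirt7 (SE 0.12, adjusted p = 0.0559).

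Of 15 genes of the PARP family, whose enzymes cleave NAD to modify proteins, 4 were called lower (beside 15.0% of all genes tested). Another 1 was called higher (beside 16.5%), and 10 were not called. The family is named after poly(ADP-ribose) polymerase, and not every member need make poly(ADP-ribose). The median log2 fold change of the 15 was -0.24. The lower genes were Parp12 (-0.67, adjusted p = 0.00145), Parp14 (-0.82, adjusted p = 0.00184), Parp10 (-0.56, adjusted p = 0.0123) and Parp8 (-0.46, adjusted p = 0.0257). Tiparp was higher, at 0.59 (adjusted p = 0.0137), and like Parp8 it was named after its values were seen. Parp8 lost its call with the offset for GC content and length and without WH8. Parp1, the main DNA damage enzyme of the family, had -0.21 (SE 0.09, adjusted p = 0.101). The glycohydrolase Cd38 had -0.18 (SE 0.10, adjusted p = 0.213). Nnmt, which methylates nicotinamide, had 0.37 (SE 0.19, adjusted p = 0.163), and the NAD hydrolase Nudt13 was lower, at -0.54 (SE 0.12, adjusted p = 0.0097).

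Other enzymes pass electrons through NADH. Of 11 genes of the NADH shuttles and lactate dehydrogenases, 8 were higher (beside 16.5% of all genes tested) and none was lower in edgeR, in DESeq2 or at an unadjusted p under 0.05. The 3 that did not pass were Slc25a12, Gpd1 and Gpd2, named after their values were seen, and the median over the list was 0.61 on the log2 scale. The malate dehydrogenases Mdh2 and Mdh1 had 1.22 (SE 0.09, adjusted p = 4.16e-05) and 1.01 (SE 0.09, adjusted p = 0.00011), and the mitochondrial aspartate aminotransferase Got2 had 1.03 (SE 0.09, adjusted p = 9.07e-05). Of 9 genes of NADPH formation, 4 were higher (beside 16.5% of all genes tested) and again none was lower by any of these. The 4 were the transhydrogenase Nnt (1.09, adjusted p = 0.000459), the malic enzymes Me3 (0.82, adjusted p = 0.000618) and Me1 (0.56, adjusted p = 0.00299), and Idh2 (0.59, adjusted p = 0.00467), the last named after its values were seen. Summed cardiomyocyte markers were 1.21 times as high in miR-128OE as in Ctrl libraries, and their part in these values was not tested. A part of mouse substrain in the Nnt value was not tested either.

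Of 8 genes of AMPK subunits and PPARα, 2 were higher and 1 was lower. Prkaa2, a catalytic subunit of the energy sensor AMPK, had a log2 fold change of 0.47 (SE 0.10, adjusted p = 0.00821). Ppara, a nuclear receptor of fatty acid metabolism, had 0.40 (SE 0.10, adjusted p = 0.0156), and lost the call with total counts and with DESeq2. The regulatory subunit Prkag3 had -0.82 (SE 0.16, adjusted p = 0.00532). Of the other NAD genes named, Afmid, Acmsd, Nadsyn1, Naprt, Parp8, Parp10, Tiparp, Nudt13, Me1, Idh2, Prkag3, Prkaa2 and Ppara lost their call without WH9, and Acmsd, Nadsyn1, Parp10 and Ppara also without WH10. Exons of 11 of the 21 called genes named here overlap those of another gene entry (Afmid, Acmsd, Naprt, Parp10, Parp14, Tiparp, Nnt, Me1, Me3, Got2 and Mdh1), so their counts are uncertain. For Nnt the other entry carries the same name and shares 3339 of 7037 exon bases. Exons of Sirt2, Sirt7, Parp1, Slc25a51, Gpd1 and Gpd2, named here but not called, also overlap those of another entry.

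**Figure D4:**
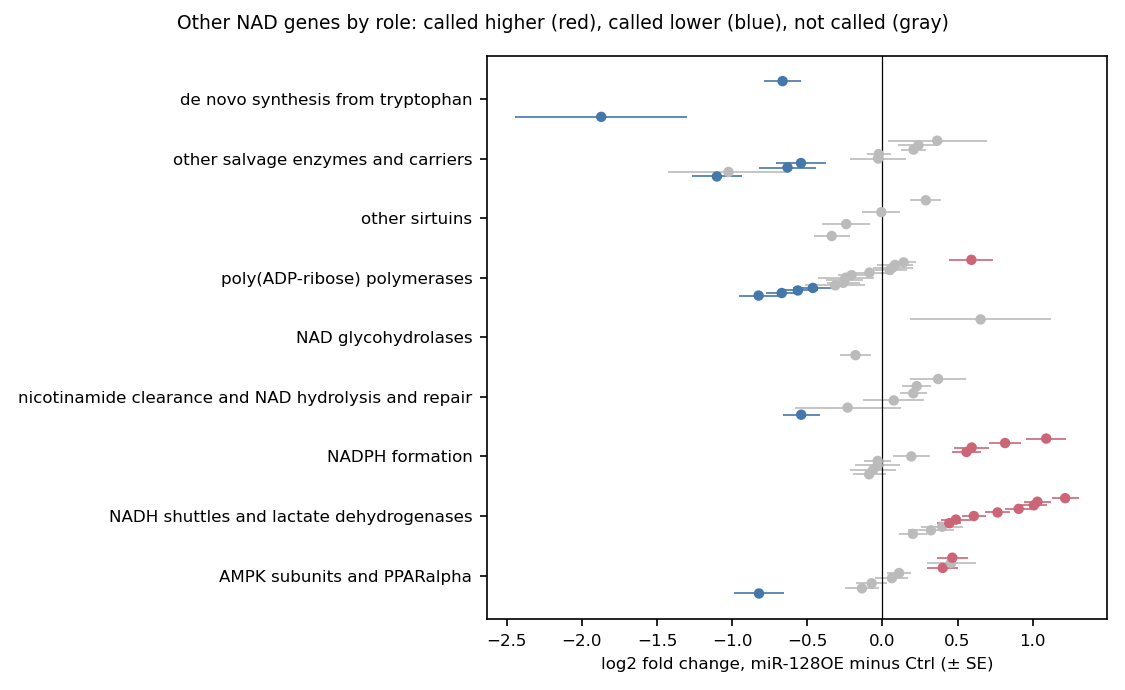
Log2 fold change of the 66 other NAD genes tested, miR-128OE minus Ctrl (horizontal axis, bars are SE), in 9 lists by role. Genes called higher are red (15), genes called lower are blue (11) and the 40 not called are gray, with all 11 genes of the NADH shuttles and lactate dehydrogenases to the right of 0.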

How the data were processed

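Total RNA of mouse hearts at P7 was sequenced. Per the labels, the submitters' processing notes name bcl2fastq, TopHat and edgeR with mm10, and the paper's methods name TopHat2 and counting with Bioconductor packages. The authors deposited raw counts of reads per Entrez gene for 4 libraries, with totals of 8096870 to 14359838. Gene models, strand handling and the treatment of multi-mapping reads are not given in the sources used here, so overlapping genes are uncertain. Hearts at P1 and P28 were not analysed here.

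Symbols were matched for 24380 of 24454 identifiers (GENCODE M21 on GRCm38, and RefSeq tables). The counts were fitted in edgeR 4.0.16 (R 4.3.3) after filterByExpr (minimum count 10, minimum total 15), with TMM factors, the quasi-likelihood test and Benjamini-Hochberg adjustment over 14266 genes at 0.05. SE is the absolute log2 fold change over the square root of F. Normalized counts are TMM-scaled at the mean effective library size, and CPM and CPM per kb are TMM-scaled too. The script was tested on simulated data. Labels do not say that libraries of a group came from separate animals. The p-values rest on the spread between these libraries, moderated over all genes, and that spread may be technical.

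Members and lists were chosen with earlier results of these data known. Named genes were all members, per list up to 3 called genes whose average log2 CPM reached 1, by smallest p, and 10 fixed genes. Alternatives were DESeq2 1.42.0 (test and size factors), upper-quartile factors, total counts, no filter, the likelihood ratio and exact tests, a loess offset for GC content and exon length, and each library left out. Python 3.11.15 was used for seed matches and summaries, over the longest 3′UTR of coding transcripts.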

Additional observations from a re-analysis of the deposited data

How the results depend on the processing

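Over 12 alternatives, 0 of the named fold changes past the threshold changed sign. All alternatives reuse these 4 libraries, so this count supports nothing beyond them. Below, a member value moved if its shift exceeded the log2 replicate SD of that gene. Genes with close replicates therefore moved on small shifts. Nmnat1, at 0.57 and at 0.12 without WH7, did not count as moved there. Of 120 member values, 18 moved by more than the replicate SD, 12 fell short of the threshold that the main value had passed (Nampt and Sirt5) and 1 newly passed it (Nmnat1). Of 300 values of other genes named by the rule, 18 lost the threshold and 12 gained it. The 2 members called lower stayed at 2 in every alternative. Members called higher fell from 2 to 0 with upper-quartile factors, total counts and the DESeq2 test, and ranged from 0 to 2 with 1 library left out, with 0 without WH9 or WH10 and 1 (Nmnat1) without WH8. Other NAD genes called higher (15) ranged from 8 to 19 and lower (11) from 3 to 12 with 1 library left out, the lowest values both without WH9. All genes called higher ranged from 897 to 2654 and lower from 667 to 2384, the lowest values both without WH9, and were 1265 and 1020 without WH10. The DESeq2 test called 1410 genes lower. The causes were not tested, although a left-out library leaves 1 sample in its group, which is assumed to vary like the other group. With 2 libraries a group, changes of low-count genes such as Nmnat1 (0.57, SE 0.31) could not be resolved. No paired analysis was possible because the labels give no replicate numbers that the groups share.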
